A study of Danio rerio with 10 samples.

Results

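The messenger RNA of neutrophils sorted from larvae that carried a vector control was described from 2 libraries, vector replicates 1 and 3. They are 2 of the 10 samples of the series and 2 of its 5 messenger RNA libraries, and both were chosen by their label. All 15335 genes listed in the count tables were used. The fish were zebrafish (Danio rerio) of the AB background at 3 days post fertilization, and they carried a transgene that expressed the vector control together with a GFP reporter. Fluorescence-activated cell sorting then picked the reporter-bearing cells, and the libraries were made with SMART-Seq v4, a kit for small amounts of RNA. The promoter of the transgene, the number of fish pooled and any stimulus are not given in the sources used here, and vector replicate 2 was not analysed here. The study set these libraries against miR-199-overexpressing neutrophils to find targets of that microRNA. No such contrast is made here, and the 3 miR-199 libraries serve only to show whether a gene at 0 in both vector libraries was counted elsewhere.

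Neutrophils are short-lived phagocytes that crawl to sites of infection or wounding. They carry granules loaded with antimicrobial proteins and proteases, and an NADPH oxidase that makes superoxide at the membrane. In zebrafish larvae they arise beside macrophages from a common myeloid precursor, and lyz (lysozyme) and mpx (myeloperoxidase) are their usual markers.

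The libraries held 17024134 counts in vector replicate 1 and 14816526 counts in vector replicate 3. At least 1 count was found for 11082 genes in replicate 1 and 10660 genes in replicate 3. A count of 0 allows up to 3 counts, which is 0.176 CPM (reads of a gene in every 1000000 counted) in replicate 1 and 0.203 CPM in replicate 3. These limits cover counting error only. The libraries differed by more than counting error, with a chi-square statistic of 11.9 per degree of freedom over 11564 genes, so they were kept as 2 samples. Across the 8214 genes that averaged 1 CPM or more, which are not independent replicates, Pearson's r of log2 CPM was 0.993 and the median absolute log2 ratio was 0.14. Nothing in the labels says that the libraries came from separate clutches, so each SD below measures only the spread between these 2 libraries, which may be technical. In bulk samples, fewer cells of a type and less RNA per cell cannot be told apart.

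All 6 genes taken as markers of these cells stood near the top of the list. By mean CPM lect2l ranked 2, lyz ranked 3, mpx ranked 5, mmp9 ranked 6, cpa5 ranked 10 and srgn ranked 26. These markers were chosen with earlier results of these data known, so their ranks are no independent check of the label neutrophils. The gene cpa5 also stands in the mast cell and eosinophil list below. The pool was concentrated: 26 genes held 25% of the counts, 241 genes held 50% and 2712 genes held 90%. Scaled by exon length to TPM (CPM per kb of exon, rescaled to 1000000 per library), 144 genes held 50%. The 15 highest genes took 20.2% of the counts and, ranked by TPM, 27.6% of the length-scaled level.

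The highest gene was actb2, a cytoplasmic actin on chromosome 3 (40526107 to 40529782, GRCz11), with 1042017 counts in replicate 1 and 861382 counts in replicate 3. It alone took 5.97% of the counts, 59672 ± 2172 CPM (SD, n = 2). Per length its lead over lect2l disappeared. The level of actb2 was 51707 ± 1472 TPM and that of lect2l was 51594 ± 1911 TPM (SD, n = 2 each), and lect2l stood above actb2 in replicate 3 and below it in replicate 1. The secreted protein gene lect2l (chromosome 14, 36885524 to 36887063) had 409480 and 371357 counts in replicates 1 and 3. Lysozyme, lyz, had 325491 and 267100 counts and 48528 ± 1633 TPM (SD, n = 2). The tables list lyz only on an alternate locus of the assembly, so no position on a primary chromosome is given. Together actb2, lect2l and lyz took 15.2% of the length-scaled level, more than the next 12 genes of the TPM list combined.

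**Figure D1:**
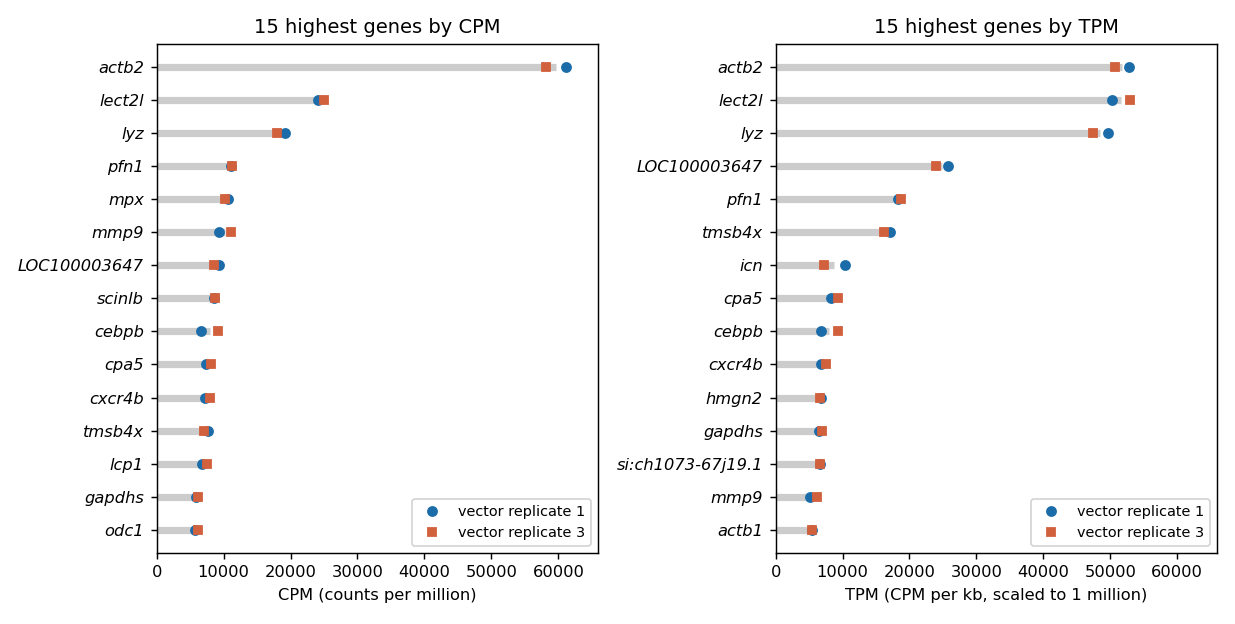
Levels of the 15 highest genes by mean CPM (left) and by mean TPM (right), both axes linear. Grey bars end at the mean, circles are vector replicate 1 and squares are vector replicate 3. By CPM actb2 stands alone at 59672, whereas by TPM actb2, lect2l and lyz lie between 48528 and 51707.

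Length scaling reordered the list below these genes. Of the 15 highest genes by CPM, 11 were also among the 15 highest by TPM. Myeloperoxidase, mpx (chromosome 10, 7778873 to 7785954), had 181536 and 151284 counts and ranked 5 by CPM, but with 3205 bases of exon its 4986 ± 113 TPM (SD, n = 2) ranked 17. In the other direction, icn, an S100-type calcium-binding protein gene with 417 bases of exon, had 48226 and 28935 counts, ranked 39 by CPM and ranked 7 by TPM with 8778 ± 2215 (SD, n = 2). The gene LOC100003647 (chromosome 2, 51765176 to 51772435), named thfp5 in the RefSeq table, had 158913 and 127396 counts and ranked 4 by TPM with 24824 ± 1245 (SD, n = 2). No role is given here for it, nor for si:ch1073-67j19.1, named teni.1 in RefSeq, at 6658 ± 19.8 TPM (SD, n = 2). The other genes of the 2 lists encode proteins of known function. These are pfn1 and tmsb4x, which bind actin monomers, lcp1, which bundles actin filaments, scinlb, a severing protein of the gelsolin type, actb1, a second cytoplasmic actin, the glycolytic enzyme gapdhs, the polyamine enzyme odc1, the nucleosome-binding hmgn2, the transcription factor cebpb and the chemokine receptor cxcr4b.

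Genes were sorted into 23 function classes by symbol. The 1641 genes in a class took 49.1% of the counts and 55.8% of the length-scaled level, so the rest of the pool is in genes that no class holds. Class members were chosen with earlier results of these data known. As a background for the counts that follow, 5985 of all 15335 listed genes (39.0%) averaged 10 CPM or more. At 100 CPM or more were 1693 genes (11.0%), and at 1000 CPM or more 125. Another 2519 (16.4%) were at 0 and 1252 (8.16%) could not be measured. Cell movement took the largest class share. The 97 actin and motility genes took 14.04% ± 0.223 of the counts and 14.1% ± 0.142 of the TPM (SD, n = 2), with 66 of them at 10 CPM or more and 21 at 1000 CPM or more. Granule and secreted effector genes came second with 8.75% ± 0.139 of the counts and 13.8% ± 0.146 of the TPM (SD, n = 2) from 21 genes. By TPM the gap between these classes was much narrower, although the actin class stayed higher in both libraries. No other class passed 3% of the counts. These shares rest on few genes: without the 5 highest genes of the library, the actin class took 7.94% and the granule class 3.87% of the remaining counts.

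**Figure D2:**
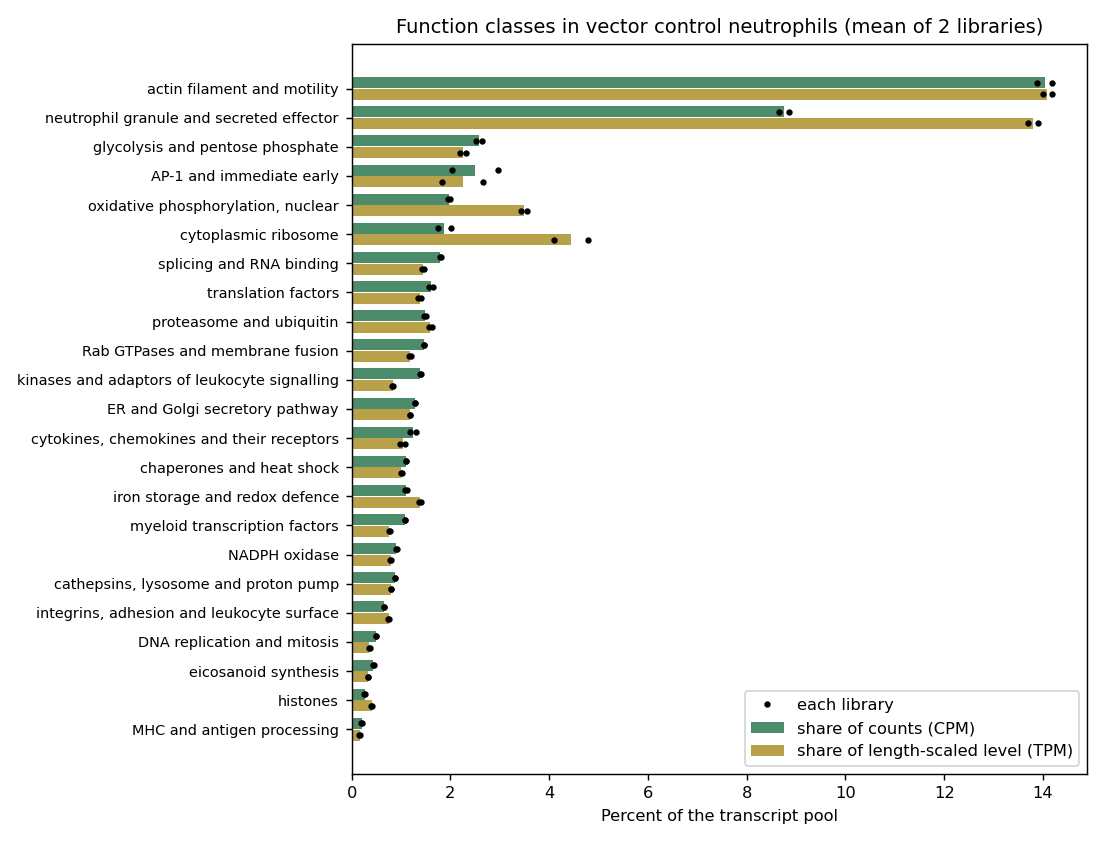
Share of the transcript pool taken by each function class, as percent of counts (green) and percent of TPM (ochre). Bars are means of 2 libraries and dots are the libraries. Actin and motility genes and granule genes stand apart from the other classes, the ribosomal share is 1.88% of counts and 4.44% of TPM, and the immediate early class shows the widest gap between its dots.

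Within the granule and effector class, 10 of 21 genes reached 1000 CPM. The protease genes were high. The gelatinase mmp9 (chromosome 8, 24281525 to 24295947) had 157802 counts in replicate 1 and 164581 counts in replicate 3, the carboxypeptidase gene cpa5 (chromosome 25, 18459929 to 18470695) had 124903 and 120153, and the membrane metalloprotease gene adam8a had 68696 and 62772. The collagenase mmp13a had 36485 and 36180 counts. Per length these were 5631 ± 763 TPM for mmp9, 8776 ± 690 for cpa5, 1950 ± 82.6 for adam8a and 2094 ± 209.5 for mmp13a (SD, n = 2 each). The metalloproteinase inhibitor timp2b had 17548 and 13207 counts and a level of 508 ± 48.1 TPM (SD, n = 2). Serglycin, srgn (chromosome 13, 23070581 to 23074454), the proteoglycan core that packs granules, had 65665 and 53544 counts and 4097 ± 156 TPM (SD, n = 2). The lectin-like receptor gene illr4 and the secretory phosphoprotein gene scpp8 followed at 2477 ± 39.1 and 2834 ± 104 TPM (SD, n = 2 each).

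Several effector genes were lower. The astacin-type protease gene npsn, nephrosin, which is on the neutrophil list below, had 261 and 199 counts, 14.4 ± 1.34 CPM (SD, n = 2). The peptidoglycan recognition genes were near 0, with 5 and 8 counts for pglyrp2 and 1 and 0 counts for pglyrp6. The lipocalin lcn15 had 0 counts in both vector libraries, although the miR-199 libraries held 16 counts of it, and pglyrp5 could not be measured, since it is at 0 and listed on both a primary chromosome and an alternate locus.

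In the actin class, 19 members were among the 100 highest genes by CPM. Monomer-binding pfn1 (chromosome 23, 44599064 to 44604195) had 189710 and 166670 counts, and tmsb4x (chromosome 9, 54178475 to 54180061) had 129552 and 105421. Per length they stood at 18476 ± 270 and 16602 ± 657 TPM (SD, n = 2 each). The leukocyte bundling protein lcp1 (chromosome 9, 56251000 to 56272465) was at 4800 ± 419 TPM, the filament-binding protein cotl1 at 5263 ± 339 TPM and the Arp2/3 subunit arpc1b at 4282 ± 248 TPM (SD, n = 2 each). Motor genes were lower per length, with 662 ± 25.8 TPM for the myosin heavy chain myh9a and 2970 ± 62.9 TPM for the light chain myl12.1 (SD, n = 2 each). Outside the class, scinlb (chromosome 2, 10396379 to 10450792), with 145011 and 129580 counts, also acts on actin, so the share of the class is a lower figure for this function. The tubulins, a list chosen after values were seen, took 0.805% ± 0.0526 of the counts (SD, n = 2), led by tubb4b.

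The NADPH oxidase genes ranged widely in level. The cytosolic organizer ncf1 had 73390 and 68689 counts and 3212 ± 191 TPM (SD, n = 2). The small GTPase rac2, its activator, was at 2344 ± 74.3 TPM and the membrane subunit cyba at 1379 ± 91.2 TPM (SD, n = 2 each). The catalytic subunit cybb had 446 ± 39.9 TPM (SD, n = 2). The cytosolic subunit ncf4 was lower, with 968 and 795 counts and 38.2 ± 1.26 TPM (SD, n = 2). The voltage-gated proton channel hvcn1, which balances the charge moved by the oxidase, had 85 and 50 counts. The NADPH oxidase class as a whole took 0.907% ± 0.00703 of the counts (SD, n = 2).

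Energy metabolism split between glycolysis and mitochondria. Glycolysis and pentose phosphate genes took 2.58% ± 0.0863 of the counts and 2.25% ± 0.0852 of the TPM (SD, n = 2). The nuclear genes of oxidative phosphorylation took 1.98% ± 0.0381 of the counts and 3.50% ± 0.0816 of the TPM (SD, n = 2), from short genes with a median exon length of 702 bases. Thus the order of these classes turned with length scaling. Among glycolytic genes, gapdhs (chromosome 16, 45044643 to 45069814) had 100134 and 91521 counts and 6677 ± 284 TPM (SD, n = 2), and pyruvate kinase pkma had 2944 ± 181 TPM. The pentose phosphate enzymes taldo1 and tktb, which recycle sugars toward NADPH supply, had 1913 ± 40.5 and 1605 ± 56.2 TPM (SD, n = 2 each). The adenine nucleotide carrier slc25a5 was the highest mitochondrial member at 3800 ± 62.4 TPM (SD, n = 2). No gene of the mitochondrial genome is listed in the tables used here.

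The ribosomal protein genes took 1.88% ± 0.191 of the counts and 4.44% ± 0.483 of the TPM (SD, n = 2). Their median exon length is 561 bases. Of 84 listed, 71 were at 10 CPM or more, and the highest by CPM was rps2, with 24252 and 19560 counts and 2363 ± 108 TPM (SD, n = 2). The elongation factor eef1a1l1 stood at 2811 ± 61.2 TPM (SD, n = 2). The ribosomal share is a lower figure, because 14 of the genes are also listed on alternate loci and 12 of those had under 12 counts in both libraries.

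Of 31 myeloid transcription factor genes, 15 were at 10 CPM or more, 12 at 100 CPM or more, 2 at 0 and 2 could not be measured. The granulocyte factor cebpa had 75143 and 63412 counts and 2311 ± 32.1 TPM (SD, n = 2). The related cebpb, counted here with the immediate early genes (chromosome 8, 28448265 to 28449782) had 114137 and 136588 counts and 8039 ± 1857 TPM (SD, n = 2), and cebp1, a C/EBP gene of fish granulocytes, had 17521 and 15748 counts and 1410 ± 43.3 TPM (SD, n = 2). Both copies of the PU.1 gene were counted at like levels, 1130 ± 61.3 TPM for spi1b and 988 ± 61.9 TPM for spi1a (SD, n = 2 each). The progenitor factor myb had 4284 and 3666 counts, and runx1 had 450 and 351. In contrast, irf8, which directs macrophage fate, had 12 and 4 counts, gfi1aa had 5 and 3 counts and cebpd had 17 and 10. The copy gfi1ab, listed only on an alternate locus, had 0 counts in both libraries.

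Of 129 cytokine, chemokine and receptor genes, 21 reached 10 CPM, 29 were at 0 and 14 could not be measured. Over all listed genes 39.0% reached 10 CPM and 16.4% were at 0. The chemokine receptor cxcr4b (chromosome 9, 10692955 to 10694930), which holds neutrophils in blood-forming tissue, had 122141 and 117332 counts and 7118 ± 553 TPM (SD, n = 2), whereas its copy cxcr4a had 12 and 15 counts. The interleukin receptor genes il6r and il10rb had 781 ± 10.1 and 539 ± 30.5 TPM (SD, n = 2 each). The receptor for granulocyte colony-stimulating factor, csf3r, had 3276 and 2090 counts and 106 ± 22.3 TPM (SD, n = 2). Among the ligands, il34 had 5307 and 4868 counts in replicates 1 and 3, and il1b had 6023 and 12074. The inflammatory cytokine tnfa and the colony-stimulating factor csf3a had 0 counts in both libraries, at limits of 0.176 and 0.203 CPM, and il6 had 1 and 0 counts. Both tnfa and csf3a were also at 0 in the 3 miR-199 libraries, so no messenger RNA library shows that the tables can count them.

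Genes for several steps of leukotriene synthesis, which makes the neutrophil attractant leukotriene B4, were counted. The hydrolase lta4h had 744 ± 23.8 TPM, alox5ap had 584 ± 6.43 TPM, alox5a had 247 ± 30.6 TPM and the receptor gene ltb4r had 854 ± 136 TPM (SD, n = 2 each). Among surface and signalling genes, the checkpoint receptor vsir had 34551 and 31475 counts, the protein kinase prkcda had 52764 and 45813 counts and the adhesion receptor selp had 8207 and 7448 counts. The Fc receptor gamma chain-like gene fcer1gl had 2470 ± 250 TPM, and the gamma chain gene fcer1g had 93.2 ± 7.09 TPM (SD, n = 2 each). The class II invariant chain cd74a had 237 and 187 counts, a mean of 17.7 TPM. In contrast, the class I genes b2m and mhc1zba had 796 ± 47.0 and 348 ± 23.4 TPM (SD, n = 2 each).

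Of 57 replication and mitosis genes, 42 were at 10 CPM or more, a level that 39.0% of all listed genes reached. Among the rest, 4 could not be measured and none was at 0. The class took 0.496% ± 0.00655 of the counts (SD, n = 2). The replication clamp pcna had 10203 and 8673 counts, the helicase mcm2 had 4786 and 4383, and the proliferation marker mki67 had 4297 and 3634. The kinase cdk2 had 1097 and 940 counts.

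A list of 16 polyamine pathway genes, chosen after values were seen, took 1.37% ± 0.0300 of the counts (SD, n = 2). The first enzyme of the pathway, odc1 (chromosome 17, 51743921 to 51757548), had 98070 and 91139 counts and 4295 ± 233 TPM (SD, n = 2). The cationic amino acid transporter slc7a3 had 40249 and 30425 counts, and spermine synthase sms had 36514 and 29362 counts. The high mobility group list, chosen in the same way, took 0.875% ± 0.00741 (SD, n = 2), led by hmgn2 at 6704 ± 76.4 TPM and hmgb2a at 3151 ± 72.4 TPM (SD, n = 2 each). Lists of calmodulin and S100 genes and of glucocorticoid-response genes were also chosen after values were seen. Calmodulin and S100 genes took 0.732% ± 0.0663, led by icn, and the list of glucocorticoid-response genes took 0.834% ± 0.235 (SD, n = 2 each). In that list dusp1, which is also an immediate early gene, held 47.2% of the mean level, and fkbp5, which is also in the chaperone class, had 28613 and 24226 counts.

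The neutrophil list includes the markers named above and was chosen with earlier results of these data known. Its levels are therefore a description and no independent check of the label. Of its 32 genes, 27 are listed, none was at 0, 26 were at 10 CPM or more and 23 at 100 CPM or more, with a median of 1538 CPM. Summed, they held 108448 CPM in replicate 1 and 112089 CPM in replicate 3. The lowest members were coro1a, an actin-binding coronin also listed on an alternate locus, with 49 and 37 counts, then npsn, fcer1g with 528 and 408 counts, and ncf4. Not listed in the tables used here were mmp25b, cxcr1, cxcr2, itgb2 and hck.

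A list of 42 genes named from mammalian neutrophils held only 12 listed genes. Those present at 100 CPM or more were arg2 with 6926 and 11652 counts, selp, selplg with 7151 and 6674 counts, and csf3r. The toll-like receptor genes tlr2 and tlr4ba had 11 and 8 counts and 6 and 1 counts. The chemokine cxcl8b.1 had 1 and 2 counts, and the peptidyl arginine deiminase padi2 had 38 and 34. The gene tlr4bb was at 0 in both libraries, and arg1 could not be measured. The other 30, among them the azurophil proteases elane, prtn3 and ctsg and the attractant cxcl8a, are not listed in the tables used here, so nothing was measured for them.

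**Figure D3:**
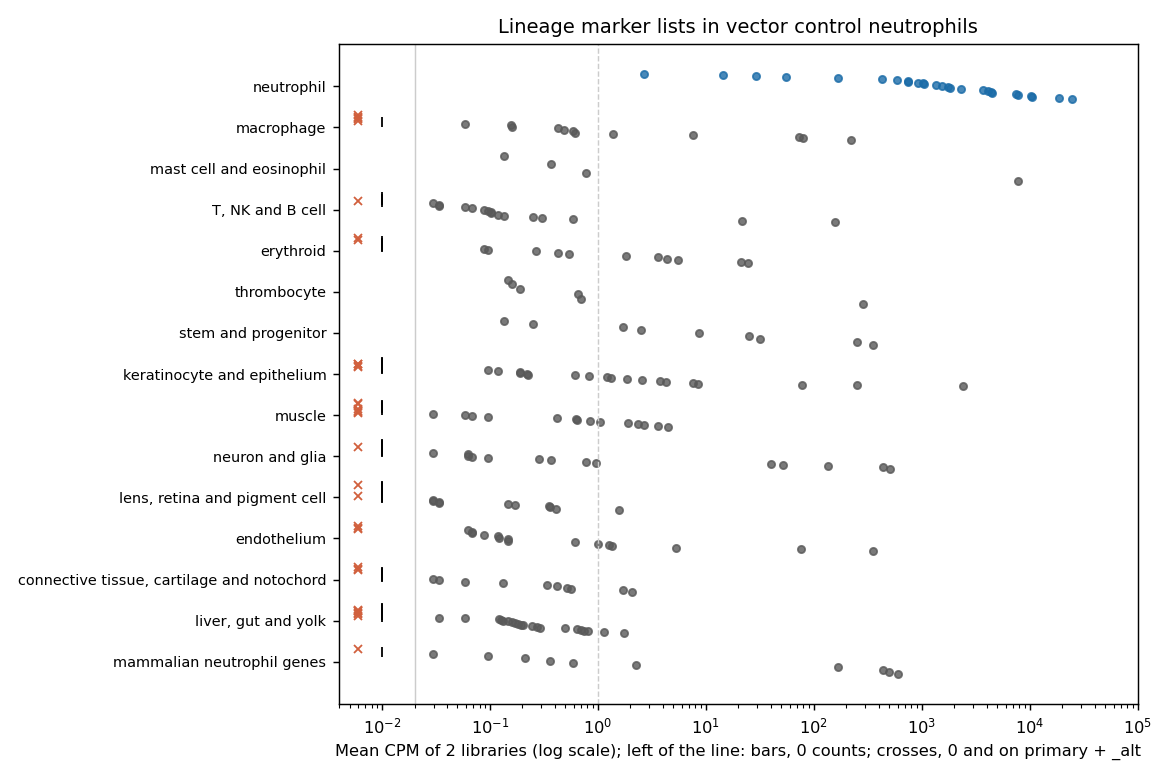
Mean CPM of 2 libraries on a log axis for every listed member of 15 lineage lists, 1 row per list. Blue points are the neutrophil list, grey points the others, black bars at the left are genes at 0, and crosses are genes at 0 that are also listed on an alternate locus. All 27 neutrophil members lie above 1 CPM, while most members of the muscle, lens, connective tissue and liver lists lie under 1 CPM or at 0.

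Most markers of other blood lineages were under 1 CPM or not measured, and the main exceptions are named here. As a background, 8214 of all 15335 listed genes averaged 1 CPM or more. The stem and progenitor list went the other way, with 7 of 9 listed genes at 1 CPM or more. Its highest members were fli1a (354.6 CPM) and myb (249.5 CPM). Of 18 listed macrophage genes, 5 reached 1 CPM. Of these, 3 reached 10 CPM, namely ctsba (a lysosomal cathepsin), cxcr3.2 and ptgs1, and mrc1b had 140 and 105 counts. Other macrophage markers were low, with 13 and 6 counts for mfap4, 15 and 5 for mpeg1.2 and 2 and 0 for csf1ra, and timd4 was at 0. The markers mpeg1.1, c1qa, c1qb, c1qc and slc7a7 could not be measured, and marco, csf1rb, cd68 and mrc1a are not listed. The macrophage list summed to 407 CPM in replicate 1 and 365 CPM in replicate 3. In the mast cell and eosinophil list, where cpa5 stands as a zebrafish mast cell marker, the other 3 listed genes summed to 1.47 and 1.08 CPM. Its members cpa3, fcer1a, epx and mcpt are not listed, so nothing was measured for them.

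The lymphoid genes that could be measured were mostly low. Of 21 listed, cd4-1, cd8a, il7r and nkl.1 were at 0 in both vector libraries, although each had counts in at least 1 miR-199 library. Only ikzf1 and ccr9a passed 1 CPM, and lck could not be measured. The lymphoid markers cd3eb, cd79b, ighm and igl are not listed, nor are the erythroid genes hbae1.1, hbae1.2, hbae1.3, hbba1, epb42 and hemgn. Of 18 listed erythroid genes, 6 reached 1 CPM, while alas2 and gata1a could not be measured. Only blvrb, with 413 and 366 counts, and the adult globin hbaa1, with 362 and 306 counts, reached 10 CPM. The embryonic globins hbae3, hbae5, hbbe1.2, hbbe1.3 and hbbe2 were at 0, while hbbe1.1 had 1 and 2 counts and hbbe3 had 3 and 0. The 5 globins at 0 were also at 0 in the 3 miR-199 libraries, so no library shows that the tables can count them. In the thrombocyte list f5, coagulation factor V, had 4954 and 4081 counts and 99.4% of the summed level, and the rest summed to 2.23 and 1.49 CPM. The thrombocyte genes thbs1b, gp9, pf4 and treml2 are not listed.

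Tissue lists were low as far as they were measured, with named exceptions. Muscle genes summed to 17.9 and 19.6 CPM in replicates 1 and 3, and connective tissue, cartilage and notochord genes to 5.70 and 6.01 CPM. Lens, retina and pigment genes summed to 3.11 and 3.17 CPM, and liver, gut and yolk genes to 9.52 and 7.69 CPM. Genes that could not be measured add nothing to these sums. They are 6 of 25 listed muscle genes, 3 of 18 connective tissue genes, 2 of 23 lens genes and 6 of 33 liver genes. Among them are ckma, mylpfa, col1a1a, col2a1a, cryaa, vtg2 and ins. Not listed, and so also absent from the sums, are des, ttn.1 and ttn.2 for muscle and apoba, apobb.2 and cel.2 for liver. For connective tissue these are col5a1, postna, acana, tbxta and ntd5. The keratinocyte list lacks krt18a.1, dspa, lye and ahnak in the same way, and the neuron and glia list lacks sv2a, her4.1 and mbpa. The keratinocyte list reached 3201 and 2309 CPM because icn held 86.9% of it. Without icn it summed to 368 and 356 CPM, mostly anxa1a and krt8 (1393 and 1074 counts), while krt4 had 67 and 54 counts and krt5, krt15, krt18 and epcam could not be measured. In the neuron and glia list 5 of 22 listed genes reached 10 CPM and 7 were at 0. The sodium pump subunit atp1a3a had 9223 and 7117 counts, the fatty acid-binding protein fabp7a 7422 and 6444, and the myelin gene mbpb 2426 and 1877. The gene fabp3 had 912 and 738 counts and plp1b 718 and 565, whereas elavl3, elavl4, gap43 and snap25b were at 0. In the endothelial list flt1, plvapb and lyve1b could not be measured. There fli1a, which blood cells also use, held 80.2% of the summed level, and tek had 1370 and 1087 counts. Whether these exceptions come from neutrophils or from other sorted cells was not tested.

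A count of 0 did not mean the same for every gene. The assembly holds alternate loci, extra copies of some regions, and 1806 genes are listed on both a primary chromosome and such a locus. Of these, 1252 (69.3%) had 0 counts in both vector libraries, and only 247 reached 1 CPM. Of the 12970 genes on primary chromosomes only, 2377 (18.3%) were at 0, and 867 of those had counts in a miR-199 library. Genes listed only on alternate loci were at 0 in 25.7% of 471 cases and took 3.85% of the counts, lyz, actb1 and cebp1 among them. Genes at 0 with a place on both are therefore treated as not measured throughout.

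**Figure D4:**
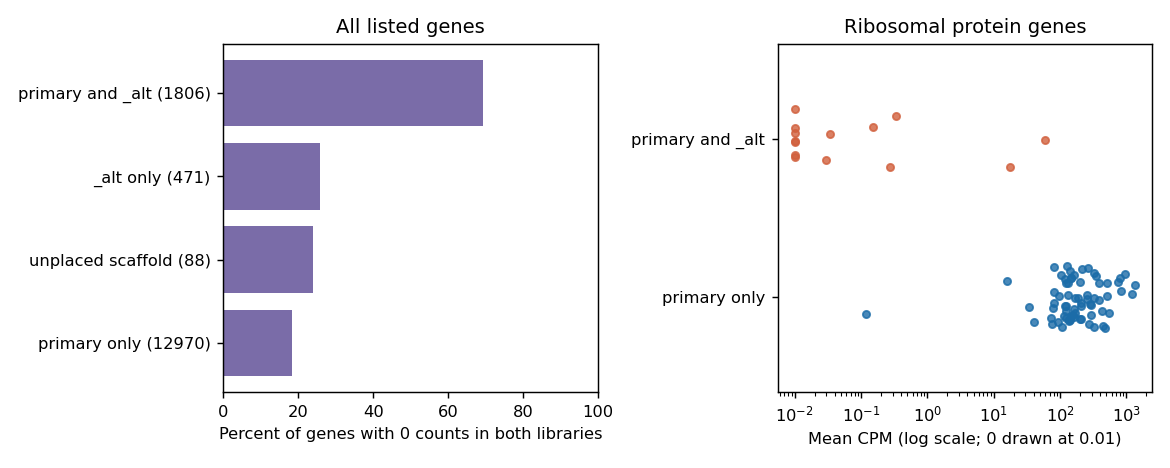
Left, percent of all listed genes with 0 counts in both libraries, by where the tables place them (number of genes in brackets). Right, mean CPM on a log axis of 14 ribosomal protein genes placed on a primary chromosome and an alternate locus and of 69 placed on primary chromosomes only, with 0 drawn at 0.01 and 1 gene on an alternate locus only not drawn. Of the genes in both places 69.3% are at 0, against 18.3% of those on primary chromosomes only.

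Ribosomal protein genes, which every cell uses, show the size of this gap. Of the 14 in both places 7 were at 0, and the highest reached 60.1 CPM. Of the 69 on primary chromosomes only none was at 0, and their median was 165 CPM. In the oxidative phosphorylation class 12 of 15 genes in both places had under 12 counts in both libraries, and in the proteasome and ubiquitin class 8 of 10 did. A second feature of the tables went with zeros. Among genes on primary chromosomes only, 166 of 206 (80.6%) with at least 50% of their exon bases shared with another listed gene were at 0, against 2151 of 12418 (17.3%) with no overlap. How reads that match more than 1 place were counted, and whether strand was used, is not given in the sources used here. Values of near-identical gene copies and of overlapping genes are therefore uncertain.

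The libraries were close for most genes and differed in a few. Of 5985 genes that averaged 10 CPM or more, 33 (0.551%) were at least 2-fold apart, 9 (0.15%) higher in replicate 3 and 24 (0.401%) higher in replicate 1. The direction turned with the minimum level: at 1 CPM 200 of 231 genes were higher in replicate 1, and at 100 CPM all 5 genes were higher in replicate 3. The widest gap at 10 CPM was that of cpeb1b, an RNA-binding protein gene chosen after its value was seen, with 74 counts in replicate 3 and 325 in replicate 1. The 5 genes at 100 CPM are jun at 2.78-fold (2860 counts in replicate 3 and 1183 in replicate 1), sik1 at 2.34-fold (3790 and 1861), il1b at 2.30-fold (12074 and 6023), dusp1 at 2.09-fold (78974 and 43325) and fosab at 2.08-fold (31551 and 17426). Of these, jun and fosab encode subunits of AP-1, dusp1 a phosphatase of kinase cascades, and sik1 a kinase.

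Immediate early genes are those that many cells switch on within minutes of a stimulus. Over the class as a whole, cebpb included, 32 of 34 AP-1 and immediate early genes with at least 10 CPM were higher in replicate 3, set against 40.9% of all genes at that level. Their median log2 ratio, replicate 3 over replicate 1, was 0.47, and that of all genes was -0.036. The widest gaps in the class were in nr4a1 (1069 counts in replicate 3 and 356 in replicate 1) and jdp2b (1647 and 554), and the only members at 10 CPM higher in replicate 1 were btg3 and zfp36l2. The class took 2.97% of the counts in replicate 3 and 2.03% in replicate 1. With 2 libraries there is no test of this difference, and its cause was not tested. Outside the class, mmp9 and arg2, picked here after their values were seen, were also higher in replicate 3, with log2 ratios of 0.26 and 0.95. The granule and effector genes, mmp9 among them, did not shift as a class. Of 16 with at least 10 CPM, 7 were higher in replicate 3 and 9 in replicate 1, with a median log2 ratio of -0.056.

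**Figure D5:**
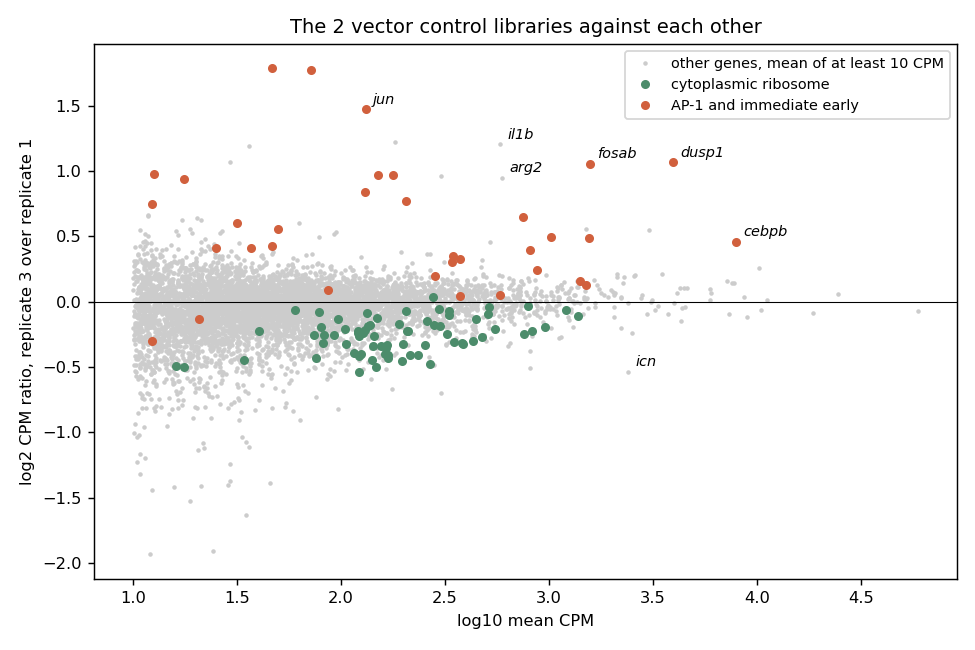
Log2 CPM ratio of replicate 3 over replicate 1 against log10 mean CPM for the 5985 genes that averaged 10 CPM or more. Orange points are the AP-1 and immediate early class, of which 32 of 34 lie above 0, and green points are ribosomal protein genes, of which 70 of 71 lie below 0.

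Ribosomal protein genes went the other way by less. Of 71 with at least 10 CPM, 1 was higher in replicate 3 and 70 in replicate 1, with a median log2 ratio of -0.24. Among all genes at that level with under 1 kb of exon, 27.1% were higher in replicate 3, and among those of 4 kb or more 21.3% were, against 48.2% of those between 1 and 2 kb. The median log2 ratio was -0.085 for the shortest genes and -0.15 for the longest. Nuclear oxidative phosphorylation genes, which are also short, had a median of -0.068, with 61 of 84 higher in replicate 1. The part of exon length in the ribosomal difference was not tested.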

How the data were processed

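Messenger RNA libraries of sorted vector control neutrophils were used. The values are raw read counts per gene, deposited by the authors in the layout of featureCounts, per the file headers, with exon coordinates and lengths. The submitters' processing notes name STAR 2.5, featureCounts, Subread 1.5.1, edgeR 3.20.8 and GRCz11, without saying which step each served. No column was left unmapped.

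From the counts, CPM was computed on library totals, and TPM as CPM per kb of listed exon length rescaled to 1000000. Values are means ± SD of 2 libraries, and nothing was tested for significance, since the libraries form 1 group. Genes at 0 in both libraries and listed on a primary chromosome and an alternate locus counted as not measured. RefSeq names matched 15161 of 15335 symbols. Named are the 15 highest genes by CPM and by TPM, the 6 markers, up to 5 highest members of each class or list, neutrophil genes at 0 and the 5 genes of at least 100 CPM furthest apart between libraries; other named genes were chosen after their values were seen. Members, markers and lists were chosen with earlier results of these data known. The CPM and TPM functions and the 2-fold rule were also run on simulated counts with known changes. Those counts were drawn with counting error only, which is less spread than these libraries showed. Tools were R 4.3.3, edgeR 4.0.16, DESeq2 1.42.0, Python 3.11.15, numpy 2.4.6, pandas 2.3.3 and matplotlib 3.10.9. Alternatives were TPM, pooled counts, TMM and median-of-ratios scaling, minimum levels, and leaving out each library, alternate loci or the 5 highest genes.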

Additional observations from a re-analysis of the deposited data

How the results depend on the processing

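No paired analysis was possible because the values come from 1 group and from no test. With 2 libraries, leaving out 1 gives only the value of the other, which says nothing about stability: 231 to 250 genes held 50% of the counts and 8131 to 8271 genes reached 1 CPM. By TPM 144 genes held 50%, the ribosomal share was 4.44% and the granule share 13.8%. Without the 5 highest genes the ribosomal share was 2.14%, the actin share 7.94% and the granule share 3.87%. Without genes on alternate loci, lyz among them, the granule share was 7.26%. Genes 2-fold apart between the libraries numbered 231 at a minimum of 1 CPM (200 higher in replicate 1), 5 at 100 CPM (none higher in replicate 1), 34 with TMM factors and 35 with DESeq2 size factors, against 33. The immediate early median log2 ratio was 0.53 with either scaling and 0.46 at 100 CPM, alternatives chosen after seeing the data. Neither of these measures has a value with 1 library left out, since each needs both. No neutrophil list member was at 0 under any setting run. These settings could not have given another outcome, since the lowest member, coro1a, had 49 and 37 counts, so this says nothing about stability. Depth limits genes under about 0.2 CPM.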

Other observations

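Zebrafish keep many genes as 2 copies named a and b. Symbols that end in a digit and differ only in a closing a or b were paired, which also takes in family members and subunits that are no such copies, such as top2a with top2b and idh3a with idh3b. Of 423 such pairs of symbols with both copies on primary chromosomes only and at least 1 copy at 10 CPM or more, 197 (46.6%) were at least 10-fold apart in TPM or had the lower copy at 0, and in 114 (27.0%) the other copy was under 1 CPM. Both copies reached 10 CPM in 210 pairs, and 95 pairs lay within 2-fold. The a copy was the higher in 225 pairs and the b copy in 198, and 418 pairs kept their order in both libraries. Which pairs are retained duplicates was not tested, and reads shared by near-identical copies were not separated.

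Examples, chosen after their values were seen, are pald1a with 40814 and 35272 counts beside pald1b with 1 and 2, and klf2b at 611 TPM beside klf2a at 1.84 TPM. In contrast, anxa11a and anxa11b stood at 472 and 455 TPM, and socs3b and socs3a at 1127 and 813 TPM.

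Exon length of the highest genes depended on the scale. The 100 highest by CPM had a median of 1724 bases, near the 1925 bases of the 8214 genes of at least 1 CPM. The 100 highest by TPM were shorter, with a median of 1368 bases. Genes at 0 on primary chromosomes only were single-exon genes in 16.5% of cases, against 1.22% of the genes of at least 1 CPM. Chromosome 3 held 4.96% of the listed genes and 12% of the counts, or 6.04% without actb2.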
